A study of Mus musculus with 2 samples.

Results

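Tgm2 and Htra1 encode enzymes that act on the extracellular matrix, and histone marks along both genes were compared between mouse mesenchymal stromal cells that lack Dicer (Dicer KO) and cells that carry it (Dicer WT). Dicer is the ribonuclease that cuts microRNA precursors. Both genotypes were grown as monoclonal immortalized lines in the same serum-containing medium, with no treatment named, and the sample titles call them fibroblasts. A difference between genotypes and a difference between clones cannot be told apart in such lines, and the sources used here give neither the allele that removes Dicer nor the means of immortalization. The labels describe 1 chromatin immunoprecipitation (ChIP-seq) sample per genotype, for histone H3 acetylated at lysine 27 (H3K27ac). The deposited lists also cover trimethylated lysine 4 (H3K4me3) and lysine 36 (H3K36me3), under the same genotype names.

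For each of the 3 marks, 1 list held point events with more reads in KO and 1 list held point events with more reads in WT. The members are all events in 2 windows of mouse build mm9, chr2:157925000-158000000 for Tgm2 (75 kb) and chr7:138060000-138145000 for Htra1 (85 kb). They were 65 of the 21418 events in all 6 lists, 31 at Tgm2 and 34 at Htra1. The windows were chosen with the differences of these same reads between genotypes known, so the reads are a description and carry no test. Every mark has 1 value per genotype, with replicates pooled (H3K27ac) or not separated, and the spread between replicates is unknown. So is the depth of each library, and the reads of each event set its precision. All intervals are 95% exact conditional binomial intervals that cover counting error only. Neighbouring events share reads in the authors' software, and no molecular identifiers that tell molecules apart are named, so the true error is wider. WT reads are given as the authors scaled them to KO. Only events that passed the authors' threshold are listed, so sums over them leave out stretches where the genotypes differed less. A mark on more cells and more of the mark per cell cannot be told apart in such pooled cells. Since only differing events are listed, the cell type named in the labels was not checked against markers.

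Tgm2 encodes tissue transglutaminase, a calcium-dependent enzyme that cross-links glutamine to lysine side chains of proteins such as fibronectin. It reaches the cell surface and the matrix without a signal peptide, and it also binds GTP inside the cell. Htra1 encodes a secreted serine protease with a PDZ domain that degrades matrix proteins, fibronectin and decorin among them, and that dampens signalling by the transforming growth factor beta family. H3K4me3 is found at promoters and H3K27ac at active promoters and enhancers. H3K36me3 is laid down along gene bodies by a methyltransferase that travels with elongating RNA polymerase II. Tgm2 is transcribed towards lower chromosome positions and Htra1 towards higher ones. No mm9 annotation was used, so events were not placed in exons, introns or promoters. Positions along the genes rest on the direction of transcription and the order of events.

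The promoter of Htra1 is shown because, of the 2 genes, only Htra1 matched the RefSeq promoter sequences by symbol and Tgm2 did not. Of H3K4me3, the promoter mark, Tgm2 had 2 listed events and Htra1 had 0. Over all listed H3K4me3 events 11.8% were higher in KO, and an absent event does not show an absent mark. These counts therefore show no difference between the genes in the mark itself. The 250 bases before the Htra1 start, chr7:130935953-130936202 on the plus strand of GRCm38.p6, run 5′ to 3′ with each CG dinucleotide in capitals.
Htra1 promoter: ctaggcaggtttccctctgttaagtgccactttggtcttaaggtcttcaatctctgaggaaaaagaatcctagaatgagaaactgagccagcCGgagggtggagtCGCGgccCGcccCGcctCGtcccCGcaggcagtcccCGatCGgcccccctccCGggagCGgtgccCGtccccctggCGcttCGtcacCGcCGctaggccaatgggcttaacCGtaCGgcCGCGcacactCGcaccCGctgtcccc
This stretch held 22 CG dinucleotides and 64.8% G or C, against medians of 6 and 52.4% over 32851 promoter stretches of the same length, of which 14.8% held at least as many CG dinucleotides. On either strand CCAAT occurred 1 time (33.8% of all stretches hold it), GGGCGG 1 time (32.7%) and TATAAA 0 times (12.4%). These positions belong to another build than the event lists and cannot be set beside the mm9 positions of the events.

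Over the listed events of both windows, KO had more H3K36me3 and more H3K27ac reads than WT. At the authors' scale there were about 4 times as many reads of the first mark and just under 3 times as many of the second. With no scaling the H3K36me3 ratios were 2.46 at Tgm2 and 2.33 at Htra1. In units of background reads the H3K27ac ratios were 1.95 at Tgm2 and 1.90 at Htra1. Those reads are an expected signal that the lists do not define. Only Tgm2 also had H3K4me3 events, again with more reads in KO. All 65 events were listed as higher in KO and 0 as higher in WT. Of all listed events, 33.8% were higher in KO for H3K36me3, 82.5% for H3K27ac and 11.8% for H3K4me3, and because the windows were chosen on this contrast nothing is read from the members' count. On chromosome 2, which carries Tgm2, the KO share was 54.7%, 82.0% and 21.2% in that order of marks. On chromosome 7, which carries Htra1, that share was 45.4%, 83.9% and 19.3%. For H3K36me3 the KO and WT lists came from different programs, so its shares do not compare like with like. The nearest event higher in WT of any mark lay 1026 kb below the Tgm2 window (H3K36me3) and 914 kb below the Htra1 window (H3K27ac).

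At Tgm2, H3K4me3 marked 1 place with 2 events 692 bp apart. The event at 157971906 had 1016.7 KO reads against 329.8 scaled WT reads, a KO/WT ratio of 3.08 (2.60 to 3.67). The event at 157971214, further in the direction of transcription, had 294.3 reads in KO against 43.5 in WT, a KO/WT ratio of 6.77 (4.36 to 11.4). The intervals of the 2 ratios did not overlap, so the event with fewer reads had the larger ratio, though not the larger gap in reads. Summed, H3K4me3 at Tgm2 had 1311 reads in KO against 373.3 in WT, a KO/WT ratio of 3.51 (2.996 to 4.14). Over the whole KO list of this mark, 70.9% of events had a ratio of at least 3 and the median was 4.10. In the Htra1 window no H3K4me3 event was listed in either direction. The nearest one to Htra1 lay 553 kb above the window and was higher in KO, and the nearest one higher in WT lay 1201 kb above it. An absent event says that the genotypes were not called different there, not that the mark was missing.

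H3K27ac at Tgm2 had 9 events spread over 58454 bp, from 157935717 to 157994170. They had 265 to 650.3 reads in KO (median 402.1) against 80.6 to 247.7 scaled reads in WT (median 127). KO lay above WT at each event because only events with more reads in KO entered this list. The largest ratio was at 157971922, 16 bp from the main H3K4me3 event, with 402.1 reads in KO against 100.4 in WT, a KO/WT ratio of 4.01 (3.26 to 4.97). The event with most reads lay inside the H3K36me3 stretch at 157956614, with 650.3 reads in KO against 225.7 in WT, a KO/WT ratio of 2.88 (2.49 to 3.33). The smallest ratio, 1.96 (1.67 to 2.29), was at 157935717, 36189 bp from the main H3K4me3 event in the direction of transcription, where KO had 422 reads against 215.4 in WT. Its interval lay below that of the event beside the H3K4me3 event. On the other side of the H3K4me3 events, against the direction of transcription, 3 further events had ratios of 3.45 at 157979955, 2.09 at 157989471 and 3.46 at 157994170. Summed, H3K27ac at Tgm2 had 3761 reads in KO against 1425 in WT, a KO/WT ratio of 2.64 (2.49 to 2.80). A ratio of at least 3 was reached by 4 of the 9 events, and by 44.3% of the KO list.

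**Figure D1:**
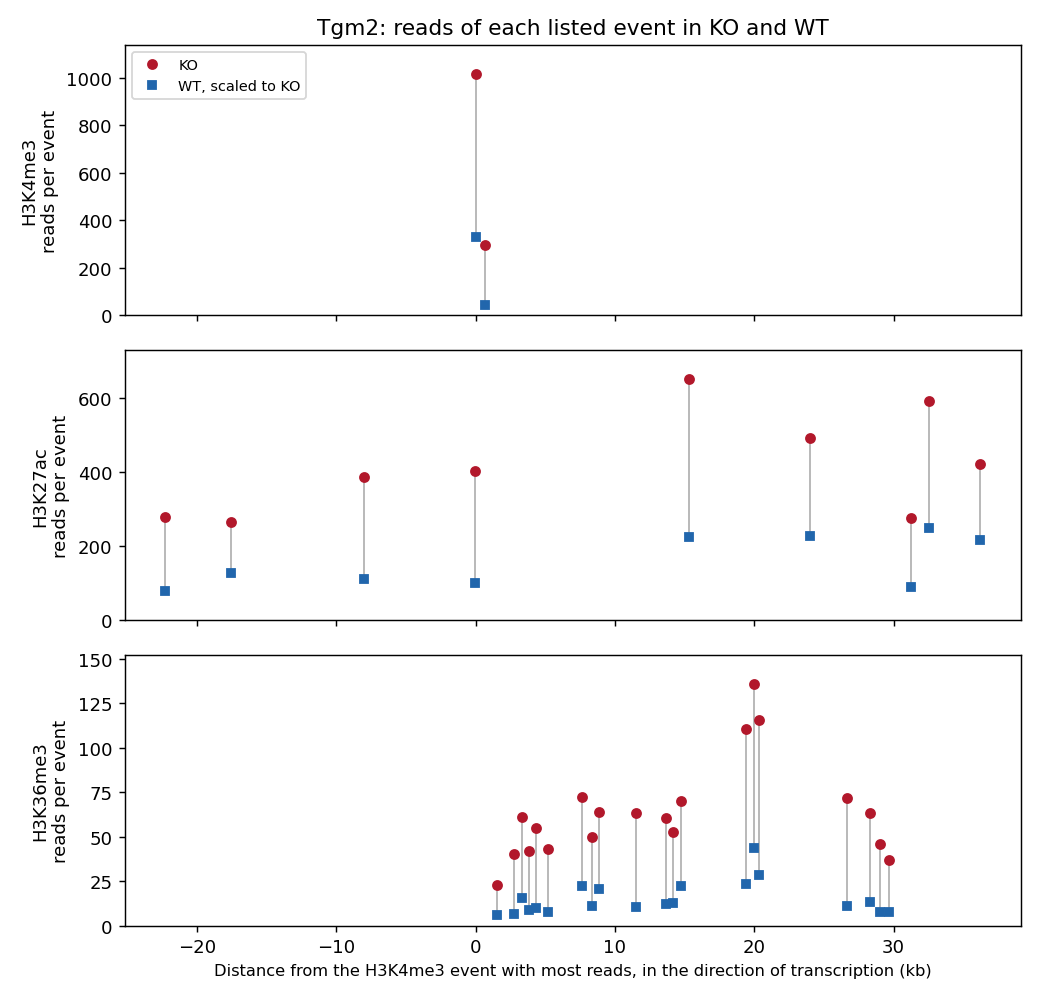
Reads of each listed event at Tgm2 in KO (circles) and WT (squares, scaled to KO), by mark from top to bottom, against the distance in kb from the H3K4me3 event with most reads, counted in the direction of transcription. All 31 events come from lists of events higher in KO, so KO lies above WT by construction. The 20 H3K36me3 events begin 1543 bp from that H3K4me3 event in the direction of transcription, and H3K27ac events lie on both sides of it.

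At Tgm2, H3K36me3 had 20 events from 157942210 to 157970363. They had 23 to 135.7 reads in KO (median 60.7) against 5.7 to 43.4 scaled reads in WT (median 11.5). All 20 were listed as higher in KO, so KO above WT at each event is fixed by the listing. The stretch of 28154 bp equals 93.9% of the gene length of 29988 bp that RefSeq gives in GRCm38.p6. Only lengths are compared, since the stretch was not placed on the gene. The end of the stretch on the side of the H3K4me3 events, at 157970363, lay 851 bp from the nearer of them. Beyond the H3K4me3 events 0 H3K36me3 events were listed. Summed, Tgm2 had 1276 H3K36me3 reads in KO against 298.9 in WT, a KO/WT ratio of 4.27 (3.85 to 4.74).

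The most H3K36me3 reads were found in a group of 3 events about 20 kb from the main H3K4me3 event in the direction of transcription. The event at 157951892 had 135.7 reads in KO against 43.4 in WT, a KO/WT ratio of 3.13 (2.36 to 4.24). Beside it, 157951585 had 115.4 reads in KO against 28.2 in WT, and 157952529 had 110.7 reads in KO against 23.4 in WT. The largest ratio, 6.58 (3.93 to 11.6), was at 157945224, with 71.7 reads in KO against 10.9 in WT. The smallest, 3.09 (2.02 to 4.79), was at 157963028, with 64 reads in KO against 20.7 in WT. For 19 of the 20 events the interval included the summed ratio. The sum is made of these same events and single intervals are wide, so this does not show an even ratio along the gene. Cut into 3 parts of equal length, the stretch had a ratio of 4.19 (3.52 to 4.99) in the part nearest the H3K4me3 events, 3.97 (3.37 to 4.67) in the middle and 4.96 (4.01 to 6.18) in the part farthest from them. The intervals of the parts overlap. In reads per kb over the listed events, these parts had 48.0, 52.5 and 35.5 in KO, against 11.4, 13.2 and 7.17 in WT.

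At Htra1, H3K36me3 had 28 events over 42796 bp, from 138088351 to 138131146. They had 28 to 88 reads in KO (median 47.2) against 3.4 to 20.8 scaled reads in WT (median 12.5). KO was above WT at all 28 events, which follows from their being listed as higher in KO. The stretch equals 86.5% of the annotated Htra1 length of 49456 bp in GRCm38.p6, with no gap between neighbouring events above 4751 bp. Only lengths are compared, since the stretch was not placed on the gene, and its share of the gene is unknown. Summed, Htra1 had 1400 H3K36me3 reads in KO against 345.5 in WT, a KO/WT ratio of 4.05 (3.68 to 4.47). The intervals of Htra1 and Tgm2 overlap.

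The listed H3K36me3 events were denser towards the end of the Htra1 stretch, with 6 in the part nearest its start, 9 in the middle and 13 in the part nearest its end. Read sums over these events move with their number in both genotypes, so they give no level of WT along the gene. In reads per kb over the listed events, the part nearest the start had 19.4 in KO against 5.28 in WT. The middle part had 26.0 in KO against 5.66 in WT, and the part nearest the end had 52.7 in KO against 13.3 in WT. The ratio of KO to WT was 3.68 (2.98 to 4.56) near the start, 4.59 (3.76 to 5.60) in the middle and 3.97 (3.49 to 4.54) near the end, with overlapping intervals. The events with most KO reads were at 138118283 (88 reads in KO against 15.4 in WT), at 138117698 (86 against 19) and at 138130698 (86 against 18). The last of these had the largest −log10 q of the H3K36me3 events in the window, 9.57.

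Ratios of single Htra1 events spread more widely than those of Tgm2. The largest was 9.71 (3.96 to 27.9) at 138110541, with 33 reads in KO against 3.4 in WT. The next was 9.02 (4.30 to 20.7) at 138099950, with 46 reads in KO against 5.1 in WT. Both lie in the middle and start-side parts of the stretch and rest on few WT reads. The smallest were 2.37 (1.42 to 4.24) at 138106830, with 34.6 reads in KO against 14.6 in WT, and 2.38 (1.32 to 4.11) beside it at 138107329, with 32.4 reads in KO against 13.6 in WT. For 26 of the 28 events the interval included the summed ratio. A ratio of at least 3 was reached by 22 of the 28 Htra1 events and by 20 of the 20 Tgm2 events, and by 78.5% of the KO list of H3K36me3. The median event ratio was 4.27 at Htra1 and 4.77 at Tgm2, beside a median of 4.05 and quartiles of 3.10 and 6.00 over that list. A −log10 q of 5 or more was reached by 9 Htra1 and 7 Tgm2 events, and by 19.1% of the list.

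**Figure D2:**
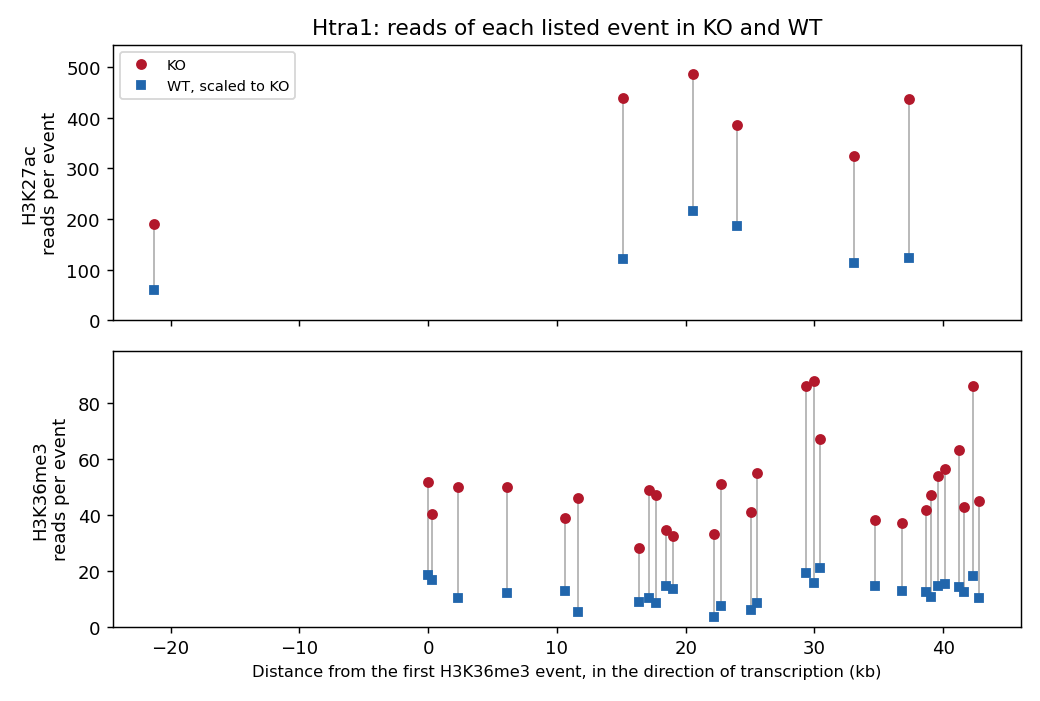
Reads of each listed event at Htra1 in KO (circles) and WT (squares, scaled to KO) for H3K27ac above and H3K36me3 below, against the distance in kb from the first H3K36me3 event, counted in the direction of transcription. All events come from lists of events higher in KO, so KO lies above WT by construction. Of the 6 H3K27ac events, 5 lie within the H3K36me3 stretch.

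H3K27ac at Htra1 had 6 events, with 191 to 485 reads in KO (median 410.5) against 59.5 to 214.9 scaled reads in WT (median 122.3). KO was above WT at each event, as the listing requires. Inside the H3K36me3 stretch lay 5 of the 6, from 138103483 to 138125686, which together had 2069 reads in KO against 759.8 in WT, a KO/WT ratio of 2.72 (2.52 to 2.95). The largest ratio was 3.61 (2.99 to 4.40) at 138103483, where KO had 439 reads against 121.5 in WT. At 138125686 KO had 436 reads against 123.2 in WT, a KO/WT ratio of 3.54 (2.93 to 4.30). Between them the event with most reads, at 138108934, had 485 in KO against 214.9 in WT, a KO/WT ratio of 2.26 (1.93 to 2.64). That at 138112314 had 385 in KO against 186.9 in WT, a KO/WT ratio of 2.06 (1.74 to 2.44). The intervals of these 2 inner events lay below those of the outer pair. The other inner event, at 138121422, had 323.9 reads in KO against 113.3 in WT, a KO/WT ratio of 2.86 (2.34 to 3.54), whose interval overlaps those of the outer pair. The remaining event, at 138067101, lay 21250 bp before the H3K36me3 stretch, with 191 reads in KO against 59.5 in WT, a KO/WT ratio of 3.21 (2.43 to 4.29). Summed over the 6 events, the ratio was 2.76 (2.56 to 2.98), and its interval overlaps that of Tgm2. A ratio of at least 3 was reached by 3 of the 6 events, and by 44.3% of the KO list of H3K27ac.

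The place of the listed H3K27ac events relative to H3K36me3 differed between the windows. This count depends on the window edges, and an absent event does not show an absent mark. At Tgm2, 2 of the 9 H3K27ac events lay inside the H3K36me3 stretch, with 1141 reads in KO against 452.8 in WT, a KO/WT ratio of 2.52 (2.27 to 2.80). The other 7 lay on either side, with a ratio of 2.70 (2.51 to 2.89). At both genes the summed H3K36me3 ratio was larger than the summed H3K27ac ratio, with intervals that did not overlap, at the authors' scales for the marks. The lists of the marks were scaled separately, so this order rests on those scales. It is also the order of the whole KO lists, whose median ratios were 4.05 for H3K36me3 and 2.87 for H3K27ac. The order is therefore not particular to these 2 genes. In the RefSeq order of GRCm38.p6, Tgm2 stands between the long noncoding RNA genes Gm34458 and Gm34514, and Htra1 between Mir7061 and Dmbt1. Which of the outer H3K27ac events lie in or near these neighbours was not analysed here.

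**Figure D3:**
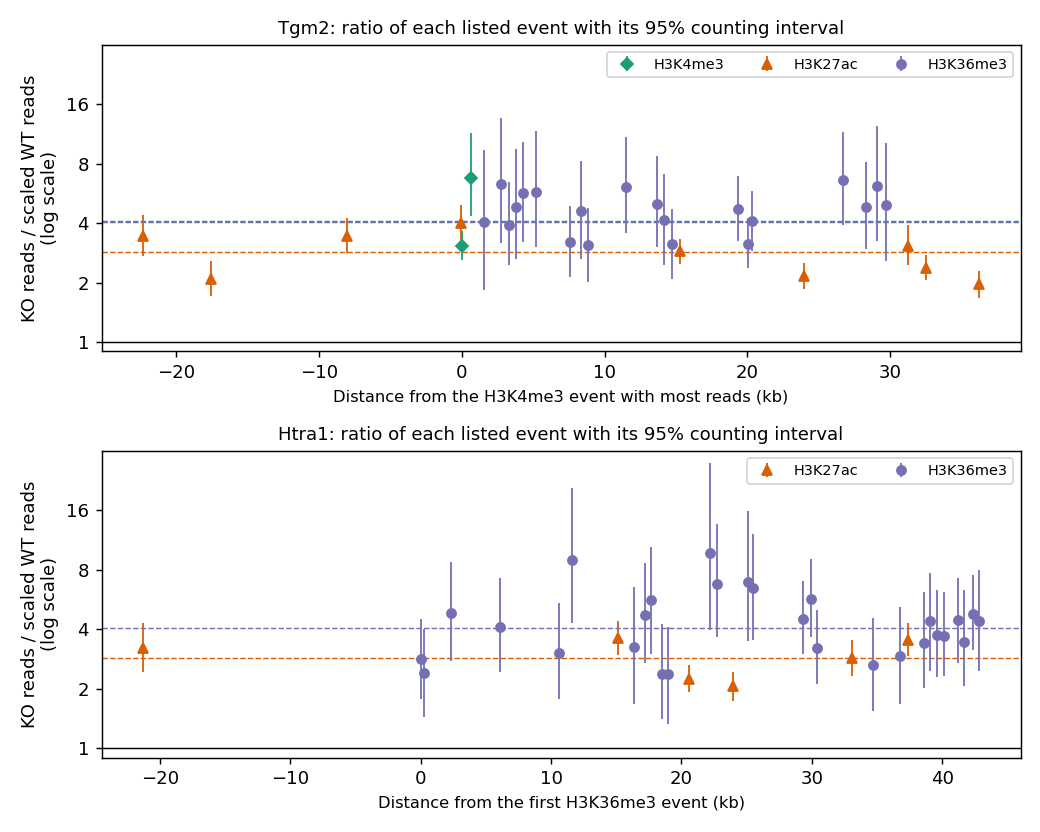
Ratio of KO reads to scaled WT reads of each listed event on a log axis, with its 95% counting interval, at Tgm2 (top) and Htra1 (bottom), against the distance in kb from the same points as in the plots of reads, in the direction of transcription. Dashed lines are the medians of the KO lists (4.10 for H3K4me3, 4.05 for H3K36me3, 2.87 for H3K27ac), and the ratios at both genes lie around these medians.

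The windows ranked high in the extent of H3K36me3 events listed as higher in KO, which is not the extent of the mark itself. With events of the KO list merged within 5 kb, the list formed 989 regions, of which 669 held 1 event. At this merge distance the Htra1 stretch was the longest and held the most events. Its largest gap, 4751 bp, lay just below 5 kb and no other distance was tried, so the ranks hold for 5 kb only. The Tgm2 stretch fell into 2 regions, of 18779 bp with 16 events and of 3015 bp with 4 events, parted by 6361 bp. The larger one ranked second in length. By length the next were chr13:118032326-118046376, of 14051 bp with 12 events, and chr6:48782169-48795935, of 13767 bp with 16 events. The first of these had a ratio of 4.46 (3.93 to 5.07), whose interval overlaps those of both genes. The second had a ratio of 6.46 (5.81 to 7.19), whose interval lay above those of Htra1 and of the larger Tgm2 region (4.07, 3.64 to 4.56). Among the 50 regions with at least 5 events, Htra1 ranked 31 and the larger Tgm2 region 30 by ratio, and the median of these 50 was 4.47. The smaller Tgm2 region, with 4 events, had a ratio of 5.58 (4.23 to 7.43). The windows were chosen with the length of these regions known, so the ranks are a description.

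**Figure D4:**
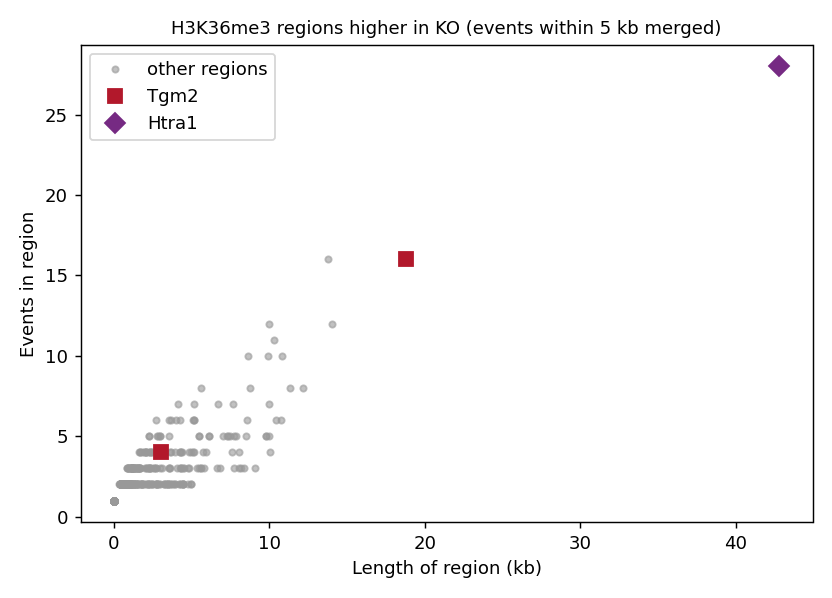
Number of H3K36me3 events against length in kb for the 989 regions of the KO list (events within 5 kb merged). Htra1 (diamond, 28 events over 42796 bp) and the larger Tgm2 region (square, 16 events over 18779 bp) are the longest, and the smaller Tgm2 region (4 events) lies among the other regions.

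Across marks, events of all lists were chained where they lay within 10 kb. Tgm2 was 1 of 63 chains with all 3 marks higher in KO and none higher in WT, and its 31 events were the most of any of them, the next having 25. Htra1 was 1 of 226 chains with H3K36me3 and H3K27ac higher in KO and no H3K4me3 event. Its 33 events ranked second, after a chain of 34. The windows were chosen with these events known, so the ranks of both chains are a description. The sixth H3K27ac event of the Htra1 window stood alone. At the edges of the windows, the nearest KO events of H3K27ac outside were 5.32 kb below and 5.67 kb above the Tgm2 window. They had 579 reads in KO against 200.5 in WT (ratio 2.89) and 313 against 123.2 (ratio 2.54), beside ratios of 1.96 and 3.46 at the outermost events inside. At Htra1 the nearest lay 55.2 kb below the window, with 465 reads in KO against 206.4 in WT (ratio 2.25).

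The scale between genotypes moves all ratios of a mark. The authors had multiplied WT reads by 0.575 for H3K36me3, 0.849 for H3K27ac and 2.15 for H3K4me3. With no scaling, the summed ratios were 2.46 for H3K36me3, 2.24 for H3K27ac and 7.54 for H3K4me3 at Tgm2, and 2.33 for H3K36me3 and 2.34 for H3K27ac at Htra1. The intervals of H3K36me3 and H3K27ac then overlapped at both genes. Background reads are here the median expected signal of each genotype's list on the chromosome, a value that the lists do not define. In these units H3K27ac had a ratio of 1.95 (1.84 to 2.06) at Tgm2 and 1.90 (1.76 to 2.05) at Htra1. H3K4me3 at Tgm2 had 5.59 (4.77 to 6.58). Relative to the median of 20 chromosomes, background on chromosome 2 had a KO/WT ratio of 1.01 for H3K27ac and 1.05 for H3K4me3. On chromosome 7 it was 1.09 for H3K27ac, in a range over chromosomes of 0.632 to 1.27, and 1.04 for H3K4me3, in a range of 0.654 to 1.20. Every event summed here comes from a list of events higher in KO, so settings that keep or reweight such events could not turn the direction. The settings without scaling and with own background also use these events alone, and their ratios remained above 1.

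**Figure D5:**
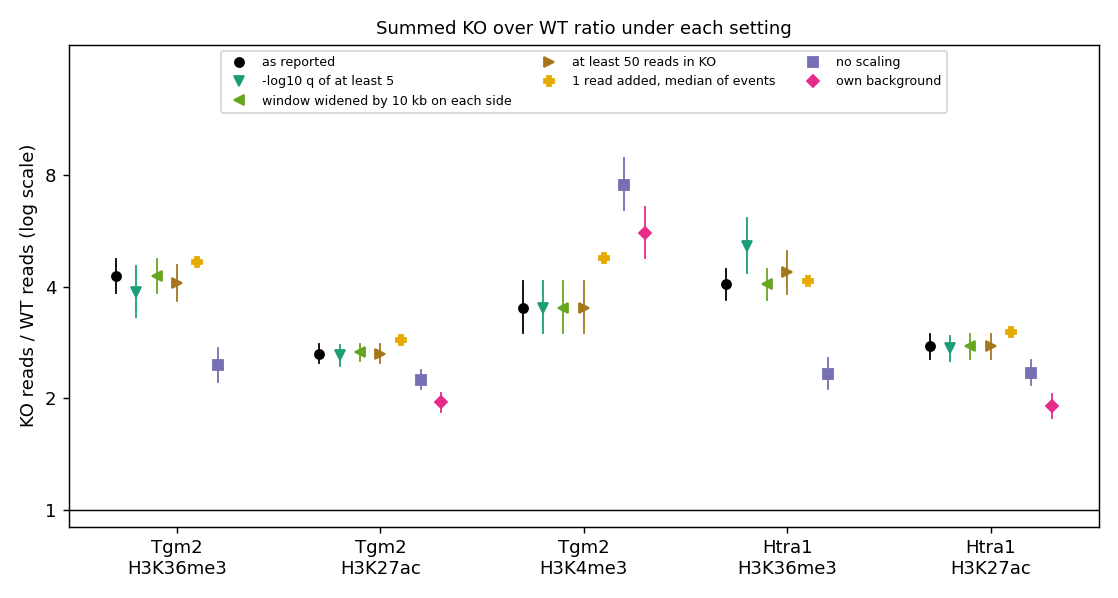
Summed KO over WT ratio on a log axis for each gene and mark with listed events, as reported (black circle) and under each alternative, with 95% counting intervals where the value is a ratio of sums. All values lie above 1, between 1.90 and 7.54, and the settings that change the scale (squares and diamonds) move the ratios most.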

How the data were processed

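ChIP-seq events for H3K36me3, H3K27ac and H3K4me3 were taken from 6 deposited lists, 1 per mark and direction. Per the file headers and names, the lists come from GPS (both H3K27ac lists and the KO list of H3K36me3) or GEM (the others), programs that place point events and share reads between neighbours. Build mm9 and TopHat 1.4 are named in the submitters' processing notes, without the role of TopHat, and no version of GPS or GEM is given there. The H3K36me3 lists of KO and WT came from different programs. Replicates of H3K27ac were pooled, per the file names, while the labels give 1 sample per genotype and the design text 2 replicates.

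The deposited estimated count of an event is the reads of the higher genotype. The deposited control signal is the other genotype's reads, scaled, and the expected signal in the deposited lists, called background reads, is not defined in the headers. The deposited fold is the ratio of count to control and was recomputed from them. The deposited −log10 q values start at 2 and stop at 999.

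The scale factor of each list was recovered as the largest step from 0.3 to 3 (every 0.0005) at which control values were whole multiples within 0.06, beyond chance. Only events with a whole count of their own and a control value above 0 entered this search. In the KO lists these were 3971 of 8323 for H3K27ac, 1308 of 1709 for H3K36me3 and 463 of 738 for H3K4me3. Of their control values, 88.7% to 96.3% were whole multiples. Ratios are KO reads over scaled WT reads, and their intervals come from unscaled reads rounded to whole numbers. The factor search and the intervals were tested on simulated data. Calculations ran in Python 3.11.15 with SciPy 1.17.1, NumPy 2.4.6 and pandas 2.3.3, and plots were drawn in matplotlib 3.10.9. The genes, windows, folds and settings were chosen with earlier results of these data known, and no gene beyond Tgm2 and Htra1 is named for its values. Genes of the same families and of matrix turnover were not analysed here, since the annotation used is of another build. It served only for gene lengths, neighbours and the promoter.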

Additional observations from a re-analysis of the deposited data

How the results depend on the processing

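Of 28 alternative values of the summed ratios, 16 stayed within the counting interval of the reported value and 12 left it. All use events already listed as higher in KO, so their direction is no sign of stability. With no scaling the ratios were 2.46 (H3K36me3), 2.24 (H3K27ac) and 7.54 (H3K4me3) at Tgm2, and 2.33 (H3K36me3) and 2.34 (H3K27ac) at Htra1. In units of own background reads they were 1.95 for H3K27ac and 5.59 for H3K4me3 at Tgm2, and 1.90 for H3K27ac at Htra1. No background scale was tried for H3K36me3, whose expected signal is local. With 1 read added per genotype, the median over events was 2.88 for H3K27ac and 4.77 for H3K4me3 at Tgm2, and 3.01 for H3K27ac at Htra1, which weights events equally by construction. At a −log10 q of at least 5, the 9 remaining H3K36me3 events of Htra1 had a ratio of 5.15 (4.35 to 6.14). That alternative keeps fewer events by construction. Wider windows and a minimum of 50 reads left every ratio within its interval. For H3K4me3 at Htra1 no alternative gives a value, since 0 events were listed. No paired analysis was possible because each mark has a single value in KO and in WT, which also leaves no replicate to omit. H3K36me3 had the fewest reads per event, with a median of 40 in the KO list, and limits the reading of single events.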
